A study of Mus musculus with 2 samples.

Results

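The regions described here are deep intronic DNase I hypersensitive regions of the mouse heart, those lying over 50 kb from every protein-coding start. Peaks of both replicates were merged where they overlapped or touched. A merged region became a member if it held a peak of each replicate, lay over 50 kb from every protein-coding transcript start of GENCODE release 21 for mouse, and had its middle base inside a protein-coding gene body and outside its exons. Of 158036 merged regions, 104208 had a peak in each replicate, and 5897 of those were members, or 5.66%. The rule used position and presence in both replicates, not signal.

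Heart tissue of 14-day-old male mice of strain B6CASTF1/J, offspring of C57BL/6J and CAST/EiJ parents, was assayed by DNase-seq, which maps where the nuclease DNase I cuts the DNA of nuclei. There was 1 group, with 2 biological replicates and no treatment named. According to its label replicate 1 came from 3 males, no number is given for replicate 2, and pooling is not mentioned. The tissue is a mixture of heart muscle, vessel, matrix and blood cells, and each signal is an average over them.

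Enhancers, stretches of DNA that bind transcription factors and raise the activity of a promoter from a distance, often lie in introns, and long introns can hold those of their own gene or of a neighbour. Nucleosomes are displaced where such factors bind, so DNase I cuts there, and a bound factor can shield a few bases from the enzyme and leave a footprint. In the heart, enhancers are known to bind factors of the GATA, MEF2, TEAD, T-box and NKX2-5 families, while CTCF, which binds insulators and loop anchors, is found in most tissues.

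The members with the highest signal, taken as the lower of both replicates, show what a deep intronic region looks like base by base. Each sequence is the plus strand of GRCm38, the assembly also called mm10, from the RefSeq genome, over 200 bases around the middle of the region. Capitals mark bases covered by a footprint in both replicates. The 10 windows lie at chr19:22916730-22916929 in Trpm3, chr5:151368590-151368789 in Gm42906, chr9:48740240-48740439 in Zbtb16, chr12:78350880-78351079 in Gphn, chr1:180387550-180387749 in Itpkb, chr17:5189800-5189999 in Arid1b, chr9:117030910-117031109 in Rbms3, chr4:118083680-118083879 in St3gal3, chr3:52046950-52047149 in Maml3 and chr1:160693140-160693339 in Rabgap1l.
Trpm3: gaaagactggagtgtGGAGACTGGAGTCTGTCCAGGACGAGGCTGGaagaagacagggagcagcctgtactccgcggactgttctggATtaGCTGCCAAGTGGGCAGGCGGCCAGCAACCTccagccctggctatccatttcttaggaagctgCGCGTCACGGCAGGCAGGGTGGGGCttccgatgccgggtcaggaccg
Gm42906: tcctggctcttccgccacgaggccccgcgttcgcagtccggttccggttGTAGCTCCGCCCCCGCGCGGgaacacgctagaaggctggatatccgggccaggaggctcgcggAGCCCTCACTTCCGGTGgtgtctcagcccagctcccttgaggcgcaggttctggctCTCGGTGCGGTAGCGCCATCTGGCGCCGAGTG
Zbtb16: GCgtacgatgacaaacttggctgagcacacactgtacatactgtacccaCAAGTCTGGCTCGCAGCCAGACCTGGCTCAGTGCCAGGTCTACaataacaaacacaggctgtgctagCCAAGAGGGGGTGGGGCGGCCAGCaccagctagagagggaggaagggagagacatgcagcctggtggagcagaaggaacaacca
Gphn: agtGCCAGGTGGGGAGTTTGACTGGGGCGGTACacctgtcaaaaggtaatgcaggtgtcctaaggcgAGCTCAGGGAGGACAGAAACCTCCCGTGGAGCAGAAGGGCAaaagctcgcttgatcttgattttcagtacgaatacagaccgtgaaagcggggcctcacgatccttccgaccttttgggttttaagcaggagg
Itpkb: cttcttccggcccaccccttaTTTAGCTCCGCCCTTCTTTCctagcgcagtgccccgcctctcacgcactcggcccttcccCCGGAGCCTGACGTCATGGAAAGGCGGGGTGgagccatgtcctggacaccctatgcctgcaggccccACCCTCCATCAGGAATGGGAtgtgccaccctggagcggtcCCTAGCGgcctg
Arid1b: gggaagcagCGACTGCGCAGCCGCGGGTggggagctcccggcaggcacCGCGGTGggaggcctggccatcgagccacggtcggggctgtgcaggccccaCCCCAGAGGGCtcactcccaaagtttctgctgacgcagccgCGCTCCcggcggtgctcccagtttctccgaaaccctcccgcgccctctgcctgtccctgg
Rbms3: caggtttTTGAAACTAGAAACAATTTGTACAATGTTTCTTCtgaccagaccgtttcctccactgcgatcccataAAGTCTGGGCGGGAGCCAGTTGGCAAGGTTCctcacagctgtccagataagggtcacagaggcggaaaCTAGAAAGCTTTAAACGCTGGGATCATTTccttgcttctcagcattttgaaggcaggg
St3gal3: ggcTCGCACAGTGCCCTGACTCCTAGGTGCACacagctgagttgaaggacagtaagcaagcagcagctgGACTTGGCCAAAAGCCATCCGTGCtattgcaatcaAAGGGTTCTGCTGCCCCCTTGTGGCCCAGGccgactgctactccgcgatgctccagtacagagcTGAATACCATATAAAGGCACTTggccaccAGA
Maml3: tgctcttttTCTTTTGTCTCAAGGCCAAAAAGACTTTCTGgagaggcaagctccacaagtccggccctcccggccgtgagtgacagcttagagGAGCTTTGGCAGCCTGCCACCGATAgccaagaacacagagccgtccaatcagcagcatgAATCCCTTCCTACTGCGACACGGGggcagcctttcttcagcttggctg
Rabgap1l: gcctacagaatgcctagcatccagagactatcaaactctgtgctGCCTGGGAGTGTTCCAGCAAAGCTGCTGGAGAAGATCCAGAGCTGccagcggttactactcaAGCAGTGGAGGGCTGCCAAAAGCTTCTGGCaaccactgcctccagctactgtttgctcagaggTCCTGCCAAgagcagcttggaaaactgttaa

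Another 4 windows are shown because the host genes below turn on them. The strongest member of Prkce, at chr17:86313530-86313729, stands for the host whose product, protein kinase C epsilon, signals in heart muscle. That of Rora lies at chr9:69092180-69092379, in the gene of a nuclear receptor of the circadian clock. That of Akap6 lies at chr12:52910920-52911119, in the gene of a protein that anchors protein kinase A at the nuclear envelope of muscle cells. The window in Zfp366, at chr13:99238770-99238969, had 6 pairs of overlapping footprints, each pair with 1 of each replicate, among the most of all members.
Prkce: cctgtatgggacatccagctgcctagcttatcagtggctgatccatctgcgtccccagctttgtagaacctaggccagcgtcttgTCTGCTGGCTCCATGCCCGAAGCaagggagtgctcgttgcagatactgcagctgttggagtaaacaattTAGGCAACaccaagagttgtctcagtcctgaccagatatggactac
Rora: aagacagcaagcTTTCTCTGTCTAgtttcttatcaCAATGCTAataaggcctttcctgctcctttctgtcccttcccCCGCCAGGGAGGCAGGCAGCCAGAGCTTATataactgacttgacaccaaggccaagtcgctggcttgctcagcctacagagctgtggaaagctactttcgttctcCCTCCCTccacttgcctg
Akap6: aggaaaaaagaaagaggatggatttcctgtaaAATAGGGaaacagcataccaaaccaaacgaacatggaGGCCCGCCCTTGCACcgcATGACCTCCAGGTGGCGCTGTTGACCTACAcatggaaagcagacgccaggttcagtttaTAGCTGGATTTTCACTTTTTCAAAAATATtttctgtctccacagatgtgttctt
Zfp366: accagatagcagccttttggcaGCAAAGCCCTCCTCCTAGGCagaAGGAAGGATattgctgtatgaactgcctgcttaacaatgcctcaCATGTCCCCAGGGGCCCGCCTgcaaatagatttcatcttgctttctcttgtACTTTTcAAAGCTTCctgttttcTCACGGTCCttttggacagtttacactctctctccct

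Footprints filled these windows unevenly. In the Trpm3 window 88 of 200 bases were in a footprint of both replicates, and in the Arid1b window 43 were. The St3gal3 window held 108 such bases, the most of the 10, and they covered its whole match to the CTCF consensus. In the Itpkb window the CREB consensus TGACGTCA and the TEAD consensus GGAATG were covered in full. The Rabgap1l window matched none of the 30 consensus sequences searched, yet 84 of its bases were covered. In the Rora window 57 bases were covered, in the Akap6 window 81 and in the Prkce window 31.

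The signals of these strongest members lay far above the rest. The Trpm3 region, in the gene of a cation channel, reached signals of 24.9 and 20.5 in replicates 1 and 2. The region in Gm42906 had 24.3 and 19.9. That in Zbtb16, which encodes a zinc-finger transcription factor, had 18.6 and 17.4. The regions in Itpkb, encoding an inositol trisphosphate kinase, and in Arid1b, encoding a subunit of a chromatin remodelling complex, had 19.8 and 14.1, and 14.0 and 12.0. In Gphn the values were 15.9 and 14.3, in Rbms3 13.04 and 10.5, in St3gal3 13.7 and 10.4, in Maml3 13.4 and 10.4 and in Rabgap1l 12.5 and 9.14. St3gal3 encodes a sialyltransferase, Maml3 a coactivator of Notch signalling and Rabgap1l an activator of Rab GTPase activity. These compare with medians over all members of 0.745 in replicate 1 and 0.573 in replicate 2.

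Some of these strong members lay near starts that the rule did not count. The Trpm3 region was 0.735 kb from an mRNA start of RefSeq and 150.1 kb from the nearest protein-coding start of GENCODE. The Gm42906 region overlapped the start of a gene of another type, and 8 footprints were found in it in each replicate. In the region in Gphn, the gene of a scaffold protein of inhibitory synapses, 58.0% of the 36-base words occurred elsewhere in the genome, so a short read can match several places. Of all members, 53 (0.899%) lay within 1 kb of an mRNA start of RefSeq and 142 (2.41%) within 1 kb of the start of an annotated gene of another type, mostly long non-coding RNAs (1.78% of members). The members within 1 kb of such other gene starts had medians of 0.812 and 0.639 in replicates 1 and 2, against 0.745 and 0.573 for the remaining members. Without the 53 members near an mRNA start of RefSeq, the density, median signal and footprint share given below moved by less than the SD between replicates.

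Strong members were rare. In each replicate at once, 86 members (1.46%) reached a signal of 4, against 4.55% of intronic regions 1 to 10 kb from a start and 35.2% of promoter regions. Those 86 had a median of 4 CpG sites per 200 bases, against 3 in the other members. Of the 86, 8 (9.30%) lay within 1 kb of a RefSeq mRNA start or of the start of another gene type, against 180 (3.10%) of the others. Of the 86, 11 (12.8%) matched the CTCF consensus, against 216 (3.72%) of the others. All 86 held a footprint shared by both replicates, and 64.4% of the others did.

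Signal was lower farther from starts. Members had medians of 0.745 and 0.573 in replicates 1 and 2, or 0.659 ± 0.121 (mean ± SD of the replicate medians, n = 2). In intronic regions 10 to 50 kb from a start the medians were 0.936 and 0.728, and in those 1 to 10 kb away 1.05 and 0.824. Intergenic regions over 50 kb from a start stood at 0.716 and 0.555, close to the members, and promoter regions at 2.39 and 2.16. Both replicates gave this order, and in each the median of members was below that of near introns. The groups overlapped widely: the quartiles of members were 0.475 and 1.25 in replicate 1 and 0.382 and 0.943 in replicate 2, against 0.653 and 1.89 and 0.531 and 1.44 in introns 1 to 10 kb from a start. With 2 replicates an exact sign permutation test of any such difference cannot go below a two-sided p of 0.5, so none was called. In a whole heart, a region open in few cells and a region weakly open in many cannot be told apart.

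**Figure D1:**
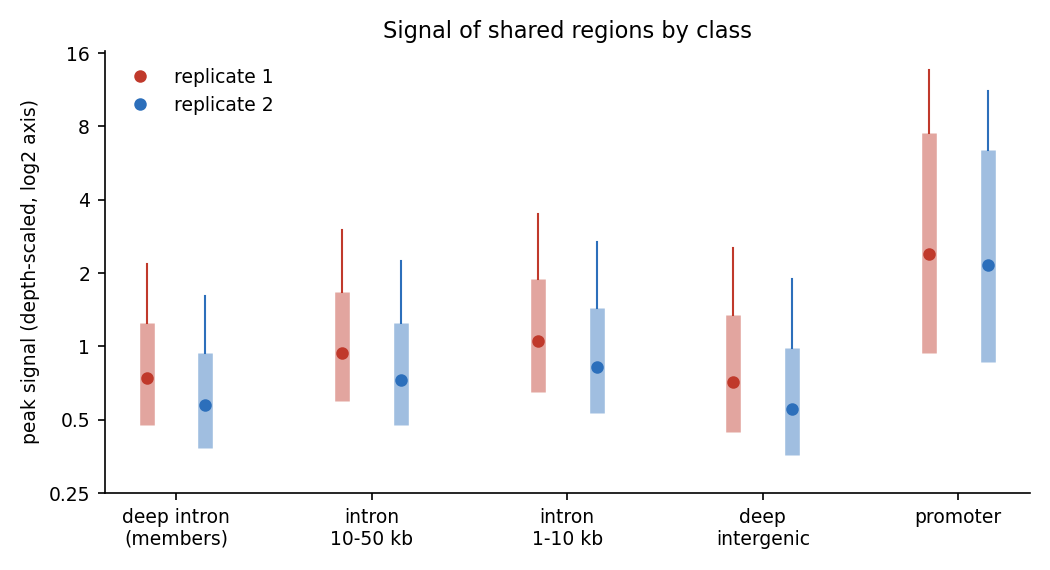
Peak signal of shared regions (log2 axis) by class and replicate. Points are medians, thick bars run between the quartiles and thin lines reach the 90th percentile. Members have medians of 0.745 and 0.573, below both nearer intron classes and far below promoters.

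Replicate 1 gave the higher signal in 84.2% of members, with a median log2 ratio of replicate 1 over replicate 2 of 0.36. The same was found in introns 1 to 10 kb away, where replicate 1 was higher in 84.6% of regions with a median log2 ratio of 0.33, and in 71.5% of promoter regions. Across the 5897 members the log2 signals of both replicates had a Pearson correlation of 0.941, given as a description, since all members of a replicate share 1 library. Of all members, 26.1% were below 0.5 in both replicates. The depth behind a peak is unknown, so how much of this lies within counting error could not be computed.

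Of 10069 merged regions in deep introns, 58.6% had a peak in each replicate, against 65.9% of all merged regions. A further 2960 had a peak in replicate 1 alone and 1212 in replicate 2 alone. The shared share was 64.1% in introns 1 to 10 kb from a start, 56.7% in deep intergenic DNA and 77.0% at promoters. Exonic regions had a shared share of 59.3%, close to that of the deep introns, and their shared regions had median signals of 0.996 and 0.818. The signal of regions that were not shared was not examined, and the cause of the differences in shared share was not tested.

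Deep introns, counted as bases over 50 kb from every protein-coding start and outside exons, made up 253 Mb. They held 23.3 members per Mb. Peaks of single replicates were denser, at 35.4 per Mb in replicate 1 and 28.4 in replicate 2 (31.9 ± 4.90, mean ± SD, n = 2). Introns 10 to 50 kb from a start held 41.0 shared regions per Mb and introns 1 to 10 kb away 48.0. Deep introns thus had 0.485 times the density of introns 1 to 10 kb away, with ratios of 0.525 in replicate 1 and 0.491 in replicate 2.

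Over all distances, members were denser than deep intergenic regions, at 23.3 against 15.2 per Mb, a ratio of 1.53 (1.51 in replicate 1 and 1.47 in replicate 2). Much of this gap was absent at matched distance. At 50 to 100 kb from a start, introns held 30.7 members per Mb and intergenic DNA 29.1 shared regions per Mb. At 100 to 200 kb the values were 21.4 in introns and 19.8 in intergenic DNA, and at 200 to 500 kb they were 12.3 and 11.4. Beyond 500 kb introns held 5.55 per Mb, from 48 members, and intergenic DNA 3.50. Deep introns lay nearer to starts than deep intergenic DNA: of their bases, 115 Mb were at 50 to 100 kb and 8.65 Mb beyond 500 kb, against 219.7 Mb and 247 Mb of intergenic DNA. In each bin, the replicates' own peak densities were higher in introns too, for example 44.9 and 36.6 per Mb at 50 to 100 kb, against 41.5 and 35.1 in intergenic DNA.

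Members lay at a median of 87.1 kb from the nearest protein-coding start, with quartiles of 63.9 and 133 kb and a maximum of 868 kb. Their signal was lower in each farther bin, with medians of 0.794 and 0.615 at 50 to 100 kb, 0.723 and 0.549 at 100 to 200 kb, 0.574 and 0.454 at 200 to 500 kb and 0.383 and 0.295 beyond 500 kb in replicates 1 and 2. At the limit of the rule, the 558 members 50 to 55 kb from a start had medians of 0.794 and 0.642, and the 728 intronic regions 45 to 50 kb from a start 0.809 and 0.639.

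**Figure D2:**
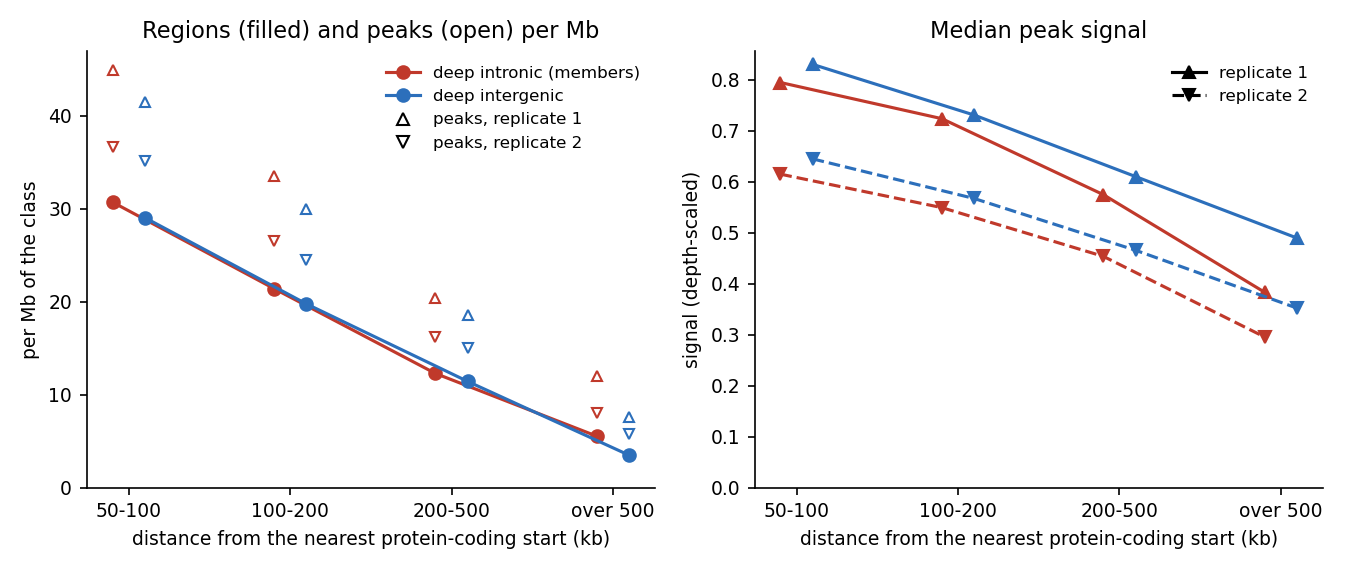
Density per Mb (left; filled circles, shared regions; open triangles, peaks of each replicate) and median signal (right) by distance from the nearest protein-coding start. Both classes lie close together in density, 30.7 against 29.1 per Mb at 50 to 100 kb, while members have the slightly lower signal in each bin.

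Intron position and length moved the density less than distance did. First introns held 25.5 members per Mb of their deep part and later introns 23.2. Deep parts of introns 50 to 100 kb long held 28.3 per Mb and those of introns over 200 kb 16.7. Among autosomes, the density ran between 18.7 per Mb on chromosome 6 and 35.9 per Mb on chromosome 11. The X chromosome had 7.09 members per Mb with median signals of 0.401 and 0.275, below every autosome in both density and signal. Male cells carry a single X chromosome.

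Members lay both in runs and alone. The median distance to the nearest other shared region was 5.92 kb, and 62.7% of members had one within 10 kb, against 85.8% of intronic regions 1 to 10 kb from a start and 60.7% of deep intergenic regions. Linked by gaps of at most 10 kb, 2135 members (36.2%) formed 556 runs of 3 or more. More members, 2366 (40.1%), had no other member that near. Runs were not counted in other classes. The runs with most members, named after their values were seen, were in Itpkb and Xxylt1, 11 members each over 21.6 and 41.8 kb. Next came Arhgef3 and Med13l, with 10 members each over 20.5 and 35.7 kb. The strongest members of these runs differed: 19.8 and 14.1 in Itpkb, 11.5 and 7.39 in Xxylt1, 8.60 and 6.33 in Arhgef3, and 1.76 and 1.45 in Med13l in replicates 1 and 2.

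Most members carried footprints. At least 1 footprint lay in 89.6% of members in replicate 1 and in 87.5% in replicate 2, and 4801 members (81.4%) had one in each replicate, against 84.1% of all shared regions. The mean number per member was 2.25 in replicate 1 and 2.12 in replicate 2, or 2.51 and 2.47 in introns 1 to 10 kb from a start. Between the 13245 footprints in members in replicate 1 and the 12505 in replicate 2, 6945 pairs overlapped by at least 50% of the shorter. The number of pairs was 52.4% and 55.5% of the number of footprints in replicates 1 and 2. A footprint that overlapped several counted in each pair, and shared footprints are counted as such pairs. A shared footprint was found in 65.0% of members, against 72.5% of introns 1 to 10 kb away and 73.8% of promoter regions. Footprints in members had a median length of 10 bases in both replicates, and 5.40% and 4.30% were 30 bases or longer in replicates 1 and 2, against 7.49% and 6.21% in introns 1 to 10 kb from a start.

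Footprints went with signal, and at equal signal the share of members with one was close to or above that of nearer introns. Below a mean signal of 0.5, 56.3% of members had a footprint in each replicate, against 56.9% of introns 1 to 10 kb from a start and 45.8% of promoter regions. At 0.5 to 1 the shares were 90.4% of members, 85.0% of near introns and 65.1% of promoter regions. At a signal of 2 or more, all members had one in each replicate. In this dataset 33.2% of members fell in the lowest bin, against 15.7% of near introns. The mean number per member in replicate 1 was 1.31 in the lowest bin and 3.60 in the highest, where promoter regions had 4.83.

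**Figure D3:**
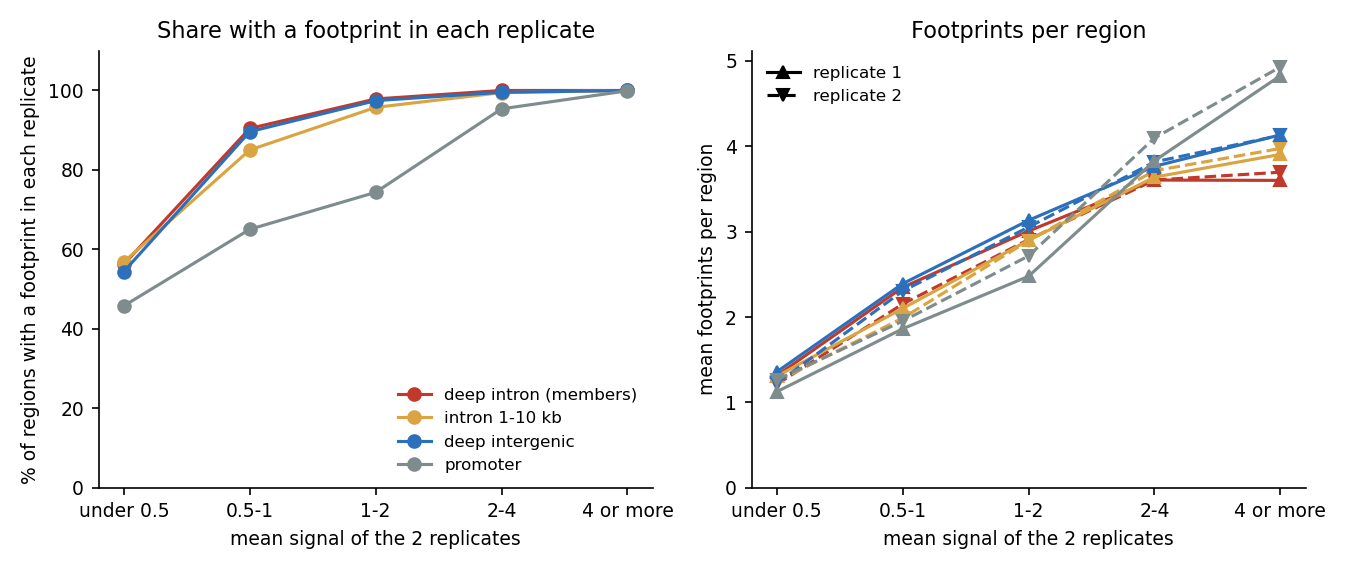
Share of regions with a footprint in each replicate (left) and mean footprints per region (right) by mean signal of the replicates. Members follow the near introns and deep intergenic regions in each bin, at 56.3% below a signal of 0.5 and 100% at 2 or more, while promoter regions have lower shares below a signal of 2.

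By overlapping pairs of footprints, the members most marked were in Gm42906, Pitpnc1 and Zfp366. The Gm42906 region, 420 bases wide, had 8 pairs from 8 footprints in each replicate. The region in Pitpnc1, which encodes a phosphatidylinositol transfer protein, had signals of 2.61 and 2.72. It held 7 pairs, from 6 footprints in replicate 1 and 8 in replicate 2. That in Zfp366, encoding a zinc-finger protein, had 6 pairs, from 6 and 4 footprints, at signals of 4.70 and 4.13. In 3 members each replicate had 8 or more footprints. Beside the Gm42906 region these were wide regions in Zbtb7c, of 900 bases with 10 footprints in each replicate, and in Cux1, of 980 bases with 9 and 8, both named after their values were seen. Overlapping pairs numbered 3 in Zbtb7c and 2 in Cux1.

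The sequence of members was unlike that of promoters. Their windows of 200 bases had a mean GC content of 50.9%, against 53.1% in introns 1 to 10 kb from a start and 63.1% at promoters, and 40.5% over all bases of deep introns. CpG sites were at 0.242 times the number their base composition gives, against 0.269 in near introns and 0.717 at promoters. Windows with a GC content of at least 50% and a CpG ratio of at least 0.6, which are marks of CpG islands, were 123 (2.09%) of members and 59.0% of promoter regions. Repeats marked in the reference covered 8.53% of the members' windows on average, against 29.6% of all bases of deep introns. All 36-base words occurred once in the genome in 96.1% of members. In 18 members at least 50% of words were repeated, and those had medians of 0.411 and 0.316.

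Consensus sequences of heart factors differed little between members and near introns, and not all in 1 direction. Of the 30 consensus sequences searched, 15 were more frequent in members than in introns 1 to 10 kb from a start, 14 were less so and 1 had no match in either. Matches were sought on both strands of the 200-base windows, and consensus sequences can overlap. They differ in length, and no rate of matches in random or shuffled sequence was computed. The MEF2 consensus, of a family that drives muscle genes, was in 1.12% of members (66 windows), 0.823% of introns 1 to 10 kb away, 0.841% of deep intergenic regions and 0.413% of promoter regions. AGATAA, bound by GATA factors, was in 9.19% of members, 7.31% of near introns, 9.31% of deep intergenic regions and 3.29% of promoter regions. GGAATG, bound by TEAD factors, was in 13.8%, 12.7%, 14.3% and 8.05% of these classes in the same order. CAGCTG, the E-box of muscle factors, was in 25.8%, 23.9%, 26.0% and 14.9%, and CATCTG, an E-box bound by HAND proteins, in 21.7%, 18.8%, 21.5% and 9.11%. TGACAG, bound by MEIS proteins, was in 20.2% of members and 17.7% of near introns. Deep intergenic regions held TGACAG in 18.4%. Members were within 0.5 percentage points of deep intergenic regions for the GATA, TEAD and both E-box sequences, and above promoters for these 6. The 6 sequences above stayed more frequent in members than in introns 1 to 10 kb from a start in windows of 100 bases and among windows with a GC content of 40% to 50%, whereas 3 further heart sequences did not. TNAAGTG, bound by NKX2-5, was in 10.3% of members and 9.10% of near introns, but among windows with a GC content of 40% to 50% it was in 11.5% of members and 12.6% of near introns. AGGTGTGA, bound by T-box factors, was in 0.695% of members and 0.731% of near introns, and the order turned in windows of 100 bases, at 0.407% and 0.241%, and at a GC content of 40% to 50%, at 0.653% and 0.559%. The SRF consensus, of a factor of muscle and cytoskeletal genes, was in 0.763% of members and 0.922% of near introns, and it was also the lower in members in both of those settings.

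Several other consensus sequences were rarer in members than in near introns. The CTCF consensus (CCA, any 2 bases, AGG, any base, GGC) was in 3.85% of members, 5.80% of introns 1 to 10 kb from a start, 3.82% of deep intergenic regions and 2.26% of promoter regions. GGGGCGGGG, bound by SP factors, was in 0.848% of members, 1.89% of near introns and 13.5% of promoter regions. CCCCACCC, bound by KLF factors, was in 3.90% of members, 6.52% of near introns and 8.51% of promoter regions. CCGGAA, bound by ETS factors, was in 3.37% of members, 4.46% of near introns and 15.5% of promoter regions. Base composition moves with these shares. Among windows with a GC content of 40% to 50%, CCGGAA was in 2.90% of members and 2.77% of near introns, so its order turned, while GGGGCGGGG was in 0.367% and 0.510%, and the CTCF consensus in 4.86% and 7.50%. Other sequences were the more frequent in members: ACAATG, bound by SOX factors, was in 10.6% of members and 8.62% of near introns, TTGCNNAA, bound by CEBP factors, in 9.77% and 8.13%, and ACANNNTGT, bound by the glucocorticoid receptor, in 7.92% and 6.84%.

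Footprints lay over the CTCF consensus far more than over the heart consensus sequences. Of 228 CTCF matches in members, 89.5% were under a footprint in replicate 1, 83.8% in replicate 2 and 82.9% in both. A match counted as under a footprint where footprints covered at least 50% of its bases. Of all bases of the members' windows, footprints covered 14.5% and 12.8%. Of 567 AGATAA matches, 7.76% and 8.29% were under a footprint in replicates 1 and 2, and of 877 GGAATG matches 16.1% and 13.6%. CAGCTG had 26.0% and 22.5% of 1828 matches so covered, and CAGGTG, bound by ZEB and SNAIL proteins, 31.1% and 28.9% of 720. Counted by bases, footprints covered 87.5% and 82.9% of CTCF matches and 7.73% and 6.91% of AGATAA matches in replicates 1 and 2. GGAATG matches had 14.5% and 12.6% of bases covered, close to the coverage of all bases, and CAGCTG matches 24.3% and 21.05%. Footprints over GATA matches were thus below the coverage of all bases, and those over CTCF matches well above it. High coverage was not particular to CTCF. By bases it was 62.7% and 70.2% for the 15 matches of NFI, or nuclear factor I, in replicates 1 and 2. It was 56.8% and 42.6% for the 22 CREB matches, and 40.8% and 36.2% for the 55 SP matches. The sequences differ in length, and whether a match without a footprint was bound was not tested.

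Members with a CTCF match were also stronger. The 227 such members had medians of 1.37 and 1.02 in replicates 1 and 2, against 0.731 and 0.567 in members without one. Members with a GATA match had 0.738 and 0.573, against 0.745 and 0.573 without. Medians with and without a TEAD match were 0.773 and 0.582, against 0.745 and 0.573. Among the heart consensus sequences named above, none moved the medians as the CTCF consensus did.

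The members lay in 1204 host genes, or 63.1% of the 1907 protein-coding genes with any deep intron. Of 654 genes with 100 kb or more of it, 571 (87.3%) held at least 1 member. Members were uneven over hosts: 195 hosts, or 16.2%, held 50% of them, 162 held 10 or more and 328 held 1. Genes with 100 kb or more had a median of 16.9 members per Mb of deep intron, with quartiles of 5.46 and 40.5.

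Of the hosts, 90.7% had a promoter peak in each replicate within 1 kb of a start, against 68.8% of all protein-coding genes and 86.0% of genes with deep intron. Genes open in this way held 25.5 members per Mb and the remaining genes 10.3 per Mb, a ratio of 2.47 (2.27 in replicate 1 and 2.21 in replicate 2). The gap stood in the bins up to 500 kb. At 50 to 100 kb, open genes held 32.9 members per Mb and the others 15.7. At 100 to 200 kb they held 23.3 and the others 9.65, and at 200 to 500 kb 14.0 and the others 4.03. Beyond 500 kb, open genes held 5.82 per Mb, from 39 members, and the others 4.61, from 9, and there the peaks of replicate 2 alone gave the opposite order, at 8.06 and 8.19 per Mb. The 571 genes with an open promoter and 100 kb or more of deep intron were put in 4 bins of equal size by promoter signal, and members per Mb were 8.86, 18.5, 31.3 and 38.0, lowest bin to highest.

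Gm20388 held the most members, 109, but its model, a predicted gene, has an intron of 4384 kb that spans other genes. Of the 109, 30 also lay in Gse1, and 79 lay in no other protein-coding gene. Rora followed with 42 members, with a promoter signal of 7.30 and 6.42, all 42 in its first intron of 542 kb. Wwox, encoding an oxidoreductase with WW domains, held 37, Prkce 35, and Cdh13, encoding T-cadherin of vessels and heart, 34. Rbms3, for an RNA-binding protein, had 34, Camta1, for a calmodulin-binding transcription activator, 33, and Gpc6, for a glypican, and Gse1 30 each. The other hosts with most members were Auts2, Lrmda and Msi2 with 29, Fndc3b, Slit3 and Zfhx3 with 28, Alk and Arl15 with 26, Cdkal1 with 25, and Gm37240 and Nfib with 24. Slit3 encodes a secreted ligand of Robo receptors, Msi2 an RNA-binding protein, Zfhx3 a homeobox factor and Nfib a nuclear factor I protein. All 20 had a promoter peak in each replicate.

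Per length of deep intron another order stood. Gse1 came first with 188 members per Mb, from 30 members in 159.8 kb. Next were Ctif, for a translation initiation factor, with 153 per Mb, Dgkg, for a diacylglycerol kinase, with 141, and Disc1, for a scaffold protein, with 139. Zbtb7c and Tmcc3 had 138 and 137, Zbtb16 133, Msi2 132, Fndc3b 121 and Hivep3 111. Members of Gse1 had medians of 1.54 and 1.36, and 29 of the 30 had a footprint in each replicate. Members of Zbtb16 had 2.01 and 1.42, lowest 0.667 and 0.668 and highest 18.6 and 17.4. Both hosts thus held members of above-average signal as well as many.

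**Figure D4:**
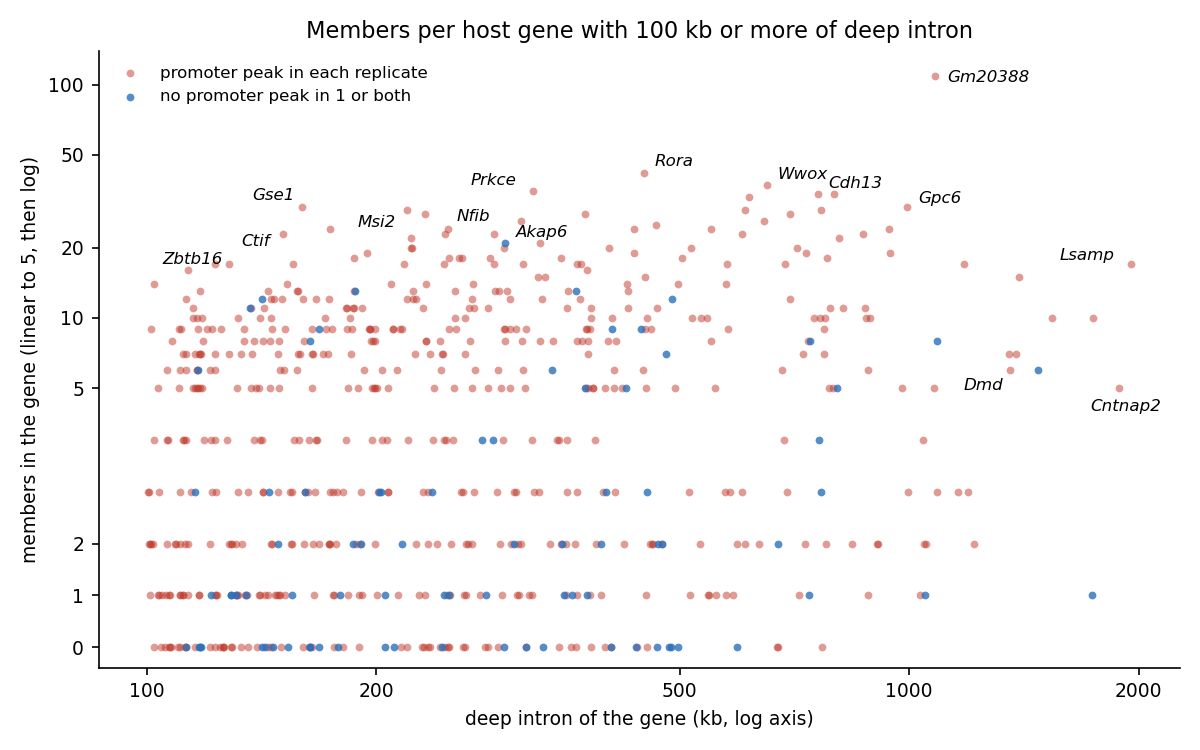
Members per gene (linear to 5, then log) against the gene's length of deep intron (log) for the 654 genes with 100 kb or more. Points are genes, coloured by whether a promoter peak was found in each replicate. Gm20388 stands apart with 109 members, Gse1 has 30 in 159.8 kb, and Dmd, on the X chromosome, has 6 in 1355 kb.

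At the other end, 83 genes with 100 kb or more of deep intron held no member, and 58 of them (69.9%) had an open promoter, against 89.8% of the 571 hosts. The longest such deep introns were of Grm7 (768 kb), encoding a glutamate receptor, Cdh18 (672 kb), Gm15155 (670 kb), Tenm1 (594 kb), Tmem132d (497 kb) and Mgat4c (488 kb). Iqcm, Skint5, Pcdh11x and Edil3 followed with 484, 467, 454 and 440 kb. Of these genes, Gm15155, Tenm1 and Pcdh11x lie on the X chromosome, where members were sparse. Of 104 genes with 500 kb or more of deep intron, 4 held no member. Tenm1, Tmem132d, Mgat4c, Iqcm and Skint5 had no promoter peak in either replicate.

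Gene lists by cell type differed in density, set beside 23.4 members per Mb over all protein-coding genes. The lists were chosen with earlier results of these data known. Cardiac transcription regulators had 119 members in 2.54 Mb, 46.9 per Mb, with peaks at 65.3 and 59.4 per Mb in replicates 1 and 2. Fibroblast and matrix genes had 47.6 per Mb from 55 members, endothelial genes 44.3 from 98, leukocyte genes 35.2 from 54, heart muscle genes 31.7 from 247 and smooth muscle and pericyte genes 28.03 from 41. Long neuronal genes had 7.33 per Mb, from 240 members in 32.8 Mb. Genes of liver and intestine epithelium had 2.33 per Mb, from 2 members in 0.858 Mb. The density is a mean that long genes weigh most in, and the lists for endothelium and leukocytes share Fli1, and those for leukocytes and smooth muscle share Ebf1. Of the 247 heart muscle members, 42 were in Rora and 35 in Prkce, which made up 448.5 and 321 kb of the list's 7.80 Mb. The density of this list therefore leans on them, and it was not computed without them. Among genes with 100 kb or more of deep intron, the median was 27.1 per Mb for heart muscle and 16.9 for all. The difference between heart muscle and neuronal lists stood in the bins up to 500 kb. At 100 to 200 kb they held 34.2 and 6.58 per Mb. At that distance the cardiac regulators held 39.4, leukocyte genes 20.6 and all genes 21.5. Smooth muscle and pericyte genes held 28.7 at 50 to 100 kb, where all genes held 30.9. Beyond 500 kb the order turned, with 4.86 per Mb from 2 members in heart muscle genes and 6.01 from 23 in neuronal genes. There the peaks of replicate 1 gave 26.7 and 11.0 per Mb, and those of replicate 2 gave 4.86 and 8.89.

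**Figure D5:**
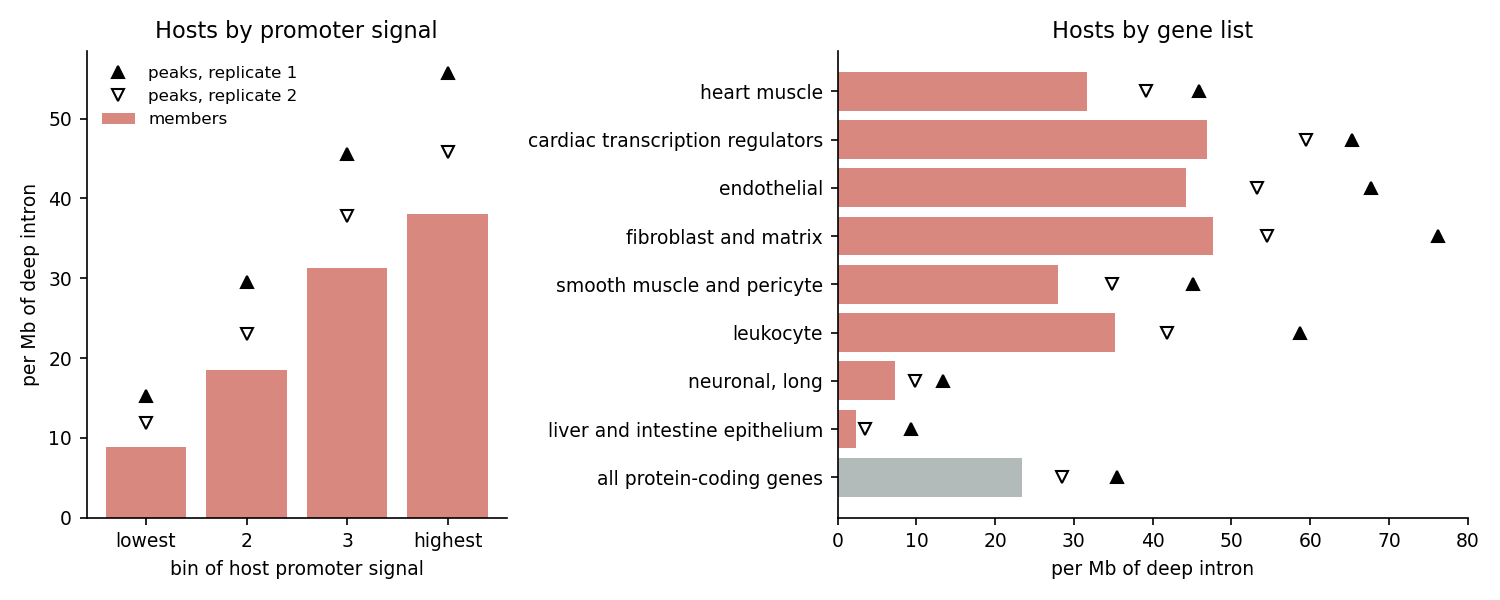
Members per Mb of deep intron (bars) and peaks per Mb of each replicate (triangles) by bin of host promoter signal (left) and by gene list (right), with all protein-coding genes in grey. The highest bin has 38.0 members per Mb and the lowest 8.86. With distances pooled, the 2 lists below all genes are the neuronal one at 7.33 and the liver and intestine one at 2.33.

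Among heart muscle genes, 23 of 28 with deep intron were hosts (82.1%, against 63.1% of all protein-coding genes with deep intron), as were all 19 with 100 kb or more, where the share over all genes was 87.3%. Corin, which encodes the protease that activates the precursor of atrial natriuretic peptide, had the highest density, 124 per Mb from 4 members in 32.3 kb. Their signals were low, with medians of 0.660 and 0.501. Prkce had 109 per Mb, its 35 members spanning 0.447 to 4.62 in replicate 1 and 0.388 to 2.90 in replicate 2, and 31 of them had a footprint in each replicate. Rora had 93.7 per Mb, and its strongest member, whose sequence stands above, had signals of 8.72 and 5.92. Genes of the same list with over 400 kb of deep intron differed widely. Dmd, encoding dystrophin, had 6 members in 1355 kb, or 4.43 per Mb. It lies on the X chromosome, which had 7.09 members per Mb. Ctnna3, encoding an alpha catenin of the intercalated disc, had 5 in 1077 kb, and Kcnd2, encoding a potassium channel, 2 in 461 kb, or 4.64 and 4.34 per Mb. Sgcd, Pde4d and Esrrg, with 781, 575 and 450.1 kb, had 23.0, 24.4 and 33.3 per Mb, near or above the 23.4 of all genes. Shorter deep introns of this list differed too. Palld, Kcnq1 and Pde3a had 74.2, 72.4 and 69.3 per Mb, while Nebl, Ryr2 and Trdn had 19.8, 17.1 and 12.7, below all genes. The genes given here after Rora were named after their values were seen.

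Akap6 was also named after its values were seen. It had no promoter peak in either replicate, yet held 21 members in 295 kb, or 71.1 per Mb, with medians of 1.16 and 0.746. Its members ran between 0.248 and 3.21 in replicate 1 and between 0.245 and 2.79 in replicate 2, and 20 of them had a footprint in each replicate. The strongest member had 4 footprints in replicate 1 and 5 in replicate 2, with 4 overlapping pairs.

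Among cardiac transcription regulators, 10 of 12 genes with deep intron were hosts (83.3%, against 63.1% of all such genes). All 6 with 100 kb or more were hosts, where the share over all genes was 87.3%. Prdm16 had 102 members per Mb from 9 members, Nfib 96.6 from 24 and Nfia 79.8 from 12. The strongest of Nfib had signals of 9.27 and 5.69 and that of Nfia 4.59 and 3.67. Pbx3 and Tead1, named after their values were seen, with 64.9 and 8.62 kb of deep intron, held none, though their promoters had signals of 15.4 and 15.2 and of 15.2 and 13.1 in replicates 1 and 2.

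Of the endothelial genes with deep intron, 13 of 18 were hosts (72.2%, against 63.1% of all such genes), led by Prkch with 118 per Mb, Arhgap31 with 88.7 and Ptprm with 69.5. Prkch and Ptprm encode a protein kinase C and a receptor tyrosine phosphatase, and the strongest members had signals of 3.42 and 2.26 in Prkch and 4.45 and 2.77 in Ptprm. Of the fibroblast and matrix genes, 7 of 9 were hosts (77.8%), led by Bicc1 with 122 per Mb, Gli2, a transcription factor of hedgehog signalling, with 86.7, and Fbn1, which encodes fibrillin-1 of elastic matrix, with 82.6. Smooth muscle and pericyte hosts numbered 8 of 9 (88.9%), led by Myh11, the smooth muscle myosin heavy chain, with 1 member in 7.31 kb, then Ebf2 with 77.3 per Mb and Mylk with 65.2. Leukocyte hosts numbered 10 of 12 (83.3%), led by Runx1 at 74.1, Bach2 at 71.9 and Ikzf1 at 68.0, and F13a1, with 126 kb of deep intron, held none. Neuronal hosts numbered 35 of 36 (97.2%), among them Tenm3 at 38.3 and Ntm at 29.5. All 36 genes have 100 kb or more of deep intron, and of all genes that long 87.3% were hosts. Of the genes that long in the other lists, all 7 endothelial, 3 fibroblast and matrix and 4 smooth muscle and pericyte genes were hosts, and 5 of 6 leukocyte genes. The 2 hosts of the liver and intestine list were Cps1 and Dpyd, with 1 member each.

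As a check of the tissue, the heart muscle genes Actn2, Myh6, Tnnt2 and Ryr2, the endothelial genes Pecam1, Cdh5 and Kdr, and the fibroblast genes Col1a1 and Pdgfra had a promoter peak in each replicate. Actn2 had signals of 4.86 and 3.32, Ryr2 3.10 and 2.77, Tnnt2 2.50 and 1.68, and Myh6 1.88 and 1.12 in replicates 1 and 2. Alb, which marks liver, and Ptprc, which marks leukocytes, had none in either. The promoter of Rbfox3, which marks neurons, had a peak of 3.67 and 2.66, above those of Myh6 and Tnnt2 in each replicate. Promoter peaks alone therefore do not set the heart apart here.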

How the data were processed

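Heart DNase-seq of 2 replicates was deposited as peak lists and footprint lists on mm10. Per the submitters' file list, each was made per replicate from 1 filtered alignment, with no pooling. The authors' peak signal is taken as depth-scaled, since their file list names a depth-normalized track. How it was scaled, the callers, the read totals and the treatment of CAST reads were not given in the sources used here. Footprints were used by position. The other value column of the deposited footprint lists is 0.01 throughout and its meaning is not stated. The lists of false discovery rates were not used here.

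The larger peak set was the main one. The highest peak of a replicate gave a region's signal. Classes were promoter (1 kb either side of a start), exon, intron or intergenic, by the middle base, with distance taken from the region's edge. Named genes were the 20 hosts with most members, the 10 densest with 100 kb or more of deep intron and 5 or more members, the 10 strongest members, the 3 with most shared footprints, and of each list the 3 densest hosts and up to 3 genes with 100 kb or more and no member. The 10 genes with most deep intron and no member were added outside this rule. Other genes were named after their values were seen, or as tissue markers. The members, gene lists and consensus sequences were chosen with earlier results of these data known. Of the smooth muscle list, 17 of 18 genes were found. Merging, classes, footprint counts and consensus searches were tested on simulated data. Scripts ran in Python 3.11.15. Figures came from matplotlib 3.10.9, and tables from pandas 2.3.3 with numpy 2.4.6. The word search used numba 0.67.0, and intervals scipy 1.17.1. The genome was GRCm38.p6 from RefSeq.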

Additional observations from a re-analysis of the deposited data

How the results depend on the processing

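The number of members was 3413 with the smaller peak set, 2040 with the upper 50% of peaks by signal, 2378 over 100 kb from starts and 3137 with starts of all annotated genes. Per Mb, those sets gave 13.5, 8.05 and 17.1 members in the first 3 settings. The median signal was 0.968 with the smaller set and 1.39 with the upper 50%. The share with a footprint in each replicate was 94.6% with the smaller set, 97.8% with the upper 50% and 79.3% over 100 kb. The density ratio of deep intron over deep intergenic was 1.47, 1.499 and 1.48 in these 3 settings, 1.88 with all starts and 1.55 with exons of all genes. The ratio of open over not open hosts was 2.35, 2.88 and 2.76, 2.37 with all starts, and 2.40 without host genes named Gm and a number. Leaving out a replicate, so that 1 replicate's peaks sufficed, gave 7152 to 8913 members and 28.2 to 35.2 per Mb. Ratios over deep intergenic were 1.48 to 1.51 and open ratios 2.21 to 2.26. Signal and footprints were then counted in the kept replicate alone. The median signal was 0.539 with replicate 1 kept and 0.495 with replicate 2 kept, against 0.745 and 0.573 in the main set. The share with a footprint in that replicate was 77.6% and 79.8%, against 89.6% and 87.5% of the main members. Fewer peaks or starts farther away made the sets smaller by construction, and the cause of the other shifts was not tested. All of these ratios stayed above 1. The settings for RefSeq starts and Gm-named hosts were chosen after seeing the data. Of the consensus sequences, 26 of 29 kept their side against near introns in windows of 100 bases and 22 of 28 at a GC content of 40% to 50%. Read depth is unknown, and with 2 replicates the exact sign test of a difference between classes cannot go below a p of 0.5. No paired analysis was possible because there is 1 group, so replicate numbers pair no groups; classes were set side by side within each replicate.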
